A study of Mus musculus with 12 samples.

Results

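Cytoplasmic dynein is the motor that carries cargo towards the minus ends of microtubules, and dynactin is the large complex that binds it to cargo and makes its runs longer. Dynactin is built on a short filament of actin-related protein, from which a shoulder and a projecting arm extend, and it has a pointed-end complex at the end of the filament. In neurons this pair drives retrograde transport along the axon. Measurements are given here for 10 genes: the dynactin subunits Dctn1, Dctn2, Dctn3, Dctn4, Dctn5, Dctn6, Actr1a and Actr1b, and the dynein subunits Dync1h1 and Dync1i2. They were taken by gene name from the expression table and the splicing table, in which they hold 407 of 364439 splicing events after reference splice sites were left out. The set was chosen by the measured PSI of 1 of these events, a 5′ splice site of Dctn2 that lies 3 nt beyond another. By the deposited PSI, its gain on Puf60 knockdown was a mean of 70.3 points over the lines. This headed all events with at least 10 reads in every library. Counts from a second event that lists the same junction, given below, made the gain smaller. The next gains were 59.2 points at a 27 nt extension of an Rnf111 exon and 58.6 points at an intron of Pnpla6. The gain is therefore a description and is not tested here, and the same holds for all values of knockdown against control.

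The libraries came from N2A cells, a mouse neuroblastoma line, and held polyadenylated RNA. Each cell line carried a doxycycline-inducible, N-terminally Flag-tagged and siRNA-resistant cDNA of the splicing factor Puf60 in a Flp-In rtTA3 background. The cDNA included the alternative exon 5 in the pEx5 line and lacked it in the mEx5 line. In each line, controls received a non-targeting siRNA at 15 nM, knockdown cells a Puf60 siRNA at 15 nM, and induced cells the Puf60 siRNA and 2 µg/ml doxycycline for 24 h, all harvested 48 h after transfection. Every group held 2 libraries, A and B, called biological duplicates. Nothing says that they came from separate transfections, and the spread behind each p-value may thus be technical. Doxycycline was given only together with the Puf60 siRNA, so its own effect and that of the cDNA cannot be told apart. Each cDNA was carried by 1 line, so cDNA and line cannot be told apart either, and the difference between the control libraries of both lines is given beside each difference after induction.

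The libraries held 22908930 to 41494994 exon–exon junction reads. Puf60 averaged, in CPM (junction reads scaled to 1000000 per library), 308 and 304 in the pEx5 and mEx5 controls, 61.4 and 73.8 after knockdown, and 624 and 602 after induction. The log2 difference of pEx5 from mEx5 was -0.27 after knockdown (adjusted p = 0.0278, limma) and 0.05 after induction (adjusted p = 0.592, limma). By the authors' values it was -0.24 (adjusted p = 0.00895, edgeR) and 0.22 (adjusted p = 0.0113, edgeR). Whether unequal Puf60 bears on the differences between lines was not tested. Of 8 noradrenergic neuroblastoma markers, 7 stood at 1 RPKM or more in every group (the authors' read level scaled to depth and transcript length), as did all 5 neuronal markers. The remaining noradrenergic marker, Th, stood at 0.08 to 0.62 RPKM. The summed level of fibroblast markers was 0.09 to 0.66 RPKM, of immune markers 0.42 to 0.80 and of endothelial markers 0.35 to 1.31. Glial markers summed to 2.98 to 4.62 RPKM. Sox10 and Mog were listed at 0 in every group and Aqp4 at 0.01 or less. Mbp stood at 1.54 to 2.42 RPKM and Gfap at 0.55 to 2.97. Gfap was higher after knockdown than in control, at 2.97 against 1.28 RPKM in pEx5 and 2.37 against 0.55 in mEx5.

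The exon–intron border that carries the Dctn2 event is shown first, because the 3 bases between its splice sites are the whole difference between both mRNAs. It belongs to the second of 14 exons of Dctn2-201, at chr10:127267414-127267482 on the plus strand of GRCm38 in GENCODE M21, and the whole exon is coding. Dctn2 encodes dynamitin, the subunit of the dynactin shoulder. Capitals mark the bases that the longer site adds. The first line runs from the exon into the intron, and the other lines are the mRNAs after joining to the third exon.
Exon end and intron start: gcagagtttgatGCGgtaagactgtgt
mRNA, longer site: gcagagtttgatGCGgaggaactgagc
mRNA, shorter site: gcagagtttgatgaggaactgagc
The intron begins with GT after the longer site and with GC after the shorter one. The longer site is the annotated exon end of Dctn2-201. The deposited splicing table gives chr10:126704475-126704538 for this event, a span shorter than the exon. The assembly of those coordinates is not given in the sources used here, and they differ from GRCm38. The exon was therefore matched by its length and those of both flanking introns. Its start was taken from an exon event of the same table that ends at the longer site.

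By the deposited values, the longer Dctn2 site was little used in controls, mostly used after knockdown and in between after induction, where the lines differed. Its percent spliced in (PSI, the share of reads at both sites that fall on the longer one) was 8.57 and 14.4 in the pEx5 controls and 9.37 and 9.69 in the mEx5 controls. After knockdown it was 83.3 and 83.8 in pEx5 and 80.1 and 76.1 in mEx5. After induction it was 37.2 and 30.8 in pEx5 and 17.6 and 18.9 in mEx5. Within a line the induced libraries lay between those of control and knockdown, and both induced pEx5 libraries lay above both induced mEx5 libraries. The gap between knockdown and control follows from the choice of this event by its gain, and induction against knockdown shares those knockdown libraries. Wilson 95% intervals treat the corrected reads as plain counts and cover no other error. They were 32.1 to 42.4 and 25.3 to 36.5 in the induced pEx5 libraries. In the induced mEx5 libraries they were 13.4 to 23.4 and 12.8 to 26.2, from 129 to 337 corrected reads a library.

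The lines differed by 15.7 points after induction (pEx5 34.0 ± 4.6, mEx5 18.3 ± 0.9, SD, n = 2 each). On the log-odds scale the difference was 0.845 ± 0.198 (SE), with an adjusted p of 0.0272 in limma's weighted test over 22770 events. In the controls the lines differed by 1.97 points (adjusted p = 0.899, limma), and after knockdown by 5.48 points (adjusted p = 0.428, limma). The difference between lines in the change from knockdown to induction was 10.2 points and did not pass (adjusted p = 0.522, limma). The call after induction was lost without the pEx5 induction library A (12.48 points, adjusted p = 0.196), without the mEx5 induction library A (15.1 points, 0.218) and without the mEx5 induction library B (16.3 points, 0.0901). The authors' deposited table called this event between the lines after induction, as it did 1.38% of 226644 events. It also called the event between the lines after knockdown, and not between the controls.

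The level of the longer junction depended on which event of the table counted it. A second event, a 3′ splice site 3 nt inside the third exon, lists the same junction, from the longer site to the start of the third exon. In pEx5 control A, the Dctn2 event gave 19.9 corrected reads for this junction and the second event gave 397 corrected reads. The uncorrected reads of the second event, 105 in this library, were counted over that event as a whole. They may thus include reads of its other site, which was not tested. In pEx5 knockdown A the values were 944.1 reads against 1169 corrected and 1105 uncorrected reads. With the uncorrected reads of the second event in place of the longer-site reads, the share was 36.9 ± 5.4% in pEx5 controls. It was 85.5 ± 0.1% after knockdown and 55.8 ± 2.0% after induction (SD, n = 2 each). In mEx5 these shares were 34.8 ± 0.8%, 81.4 ± 2.0% and 45.8 ± 0.5%. With its corrected reads they were 65.3 ± 0.2%, 86.2 ± 0.1% and 66.6 ± 0.4% in pEx5, and 67.3 ± 0.1%, 82.8 ± 2.0% and 64.9 ± 2.0% in mEx5. Knockdown libraries stood highest in each line under all 3 counts. With either count of the second event, the gain on knockdown lay below the 59.2 points of the Rnf111 event in each line. The line difference after induction fell to 10.1 points with the uncorrected reads (adjusted p = 0.139, limma) and to 1.75 points with the corrected reads (adjusted p = 0.819, limma). Which count is nearer to the mRNA was not tested.

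**Figure D1:**
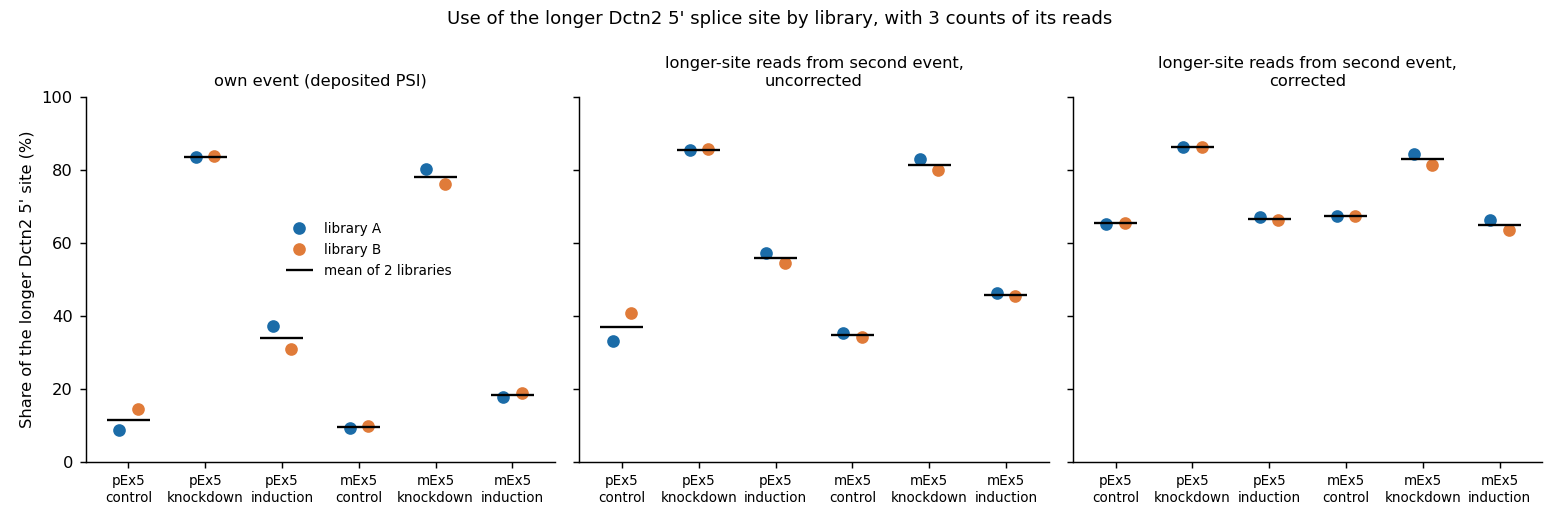
Share of the longer Dctn2 5′ splice site (percent, y axis) in each library of the 6 groups (x axis). Panels use the deposited PSI of its own event, then the uncorrected and then the corrected reads of the second event. The uncorrected reads cover that event as a whole. Points are libraries and bars the mean of 2. Knockdown is highest in every panel, while the gap between induced pEx5 and mEx5 falls from 15.7 points to 10.1 and 1.75.

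Reads at the shorter site moved far less than those at the longer site. The shorter site held 97.0 to 214 reads in the 12 libraries, and the longer site 10.0 to 36.0 reads in controls, 554.8 to 1074.1 after knockdown and 24.4 to 125.4 after induction. Both were set against the uncorrected reads of the next junction, between the third and the fourth exon. Longer-site reads were 0.84 ± 0.37% of that junction in pEx5 controls, 36.4 ± 1.1% after knockdown and 4.80 ± 1.27% after induction (SD, n = 2 each). In mEx5 they were 0.54 ± 0.06%, 29.8 ± 1.0% and 1.65 ± 0.11%. With the uncorrected reads of the whole second event in their place, the shares were 3.78 ± 1.00%, 42.2 ± 1.8% and 11.7 ± 1.7% in pEx5. In mEx5 they were 2.70 ± 0.11%, 36.5 ± 2.4% and 6.24 ± 0.93%. With its corrected reads they were 12.04 ± 0.54%, 44.5 ± 2.1% and 18.4 ± 1.5% in pEx5, and 10.4 ± 0.8%, 40.3 ± 2.4% and 13.7 ± 2.9% in mEx5. Shorter-site reads lay between 4.79% and 9.62% of the next junction in all 12 libraries.

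By the corrected reads of the Dctn2 event, most reads over the next junction had no counterpart at either site. Reads of the next junction are uncorrected, so these shares set corrected reads against uncorrected ones. Both sites together held 7.22 ± 0.59% of the next junction's reads in pEx5 controls and 5.61 ± 0.47% in mEx5 controls (SD, n = 2 each). They held 43.5 ± 1.5% and 38.2 ± 2.6% after knockdown, and 14.0 ± 1.9% and 9.02 ± 1.06% after induction. With the corrected longer-site reads of the second event these shares were 18.4 ± 0.8% and 15.5 ± 1.2% in controls, 51.7 ± 2.5% and 48.7 ± 4.0% after knockdown, and 27.6 ± 2.1% and 21.1 ± 3.9% after induction. With its uncorrected reads they were 10.2 ± 1.2% and 7.77 ± 0.52% in controls and 49.4 ± 2.2% and 44.9 ± 4.1% after knockdown. After induction they were 20.9 ± 2.3% and 13.6 ± 1.9%. Set against the junction that precedes the exon, the Dctn2 event's knockdown values were 33.3 ± 0.8% and 29.1 ± 1.5%, and its control values 5.78 ± 0.69% and 4.46 ± 0.16%. The table also lists a 3 nt exon inside this intron of 7231 nt, 4959 bases after the longer site. It had 0 reads and no PSI in all 12 libraries, and whether mRNAs with that exon make up the uncounted reads was not tested.

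**Figure D2:**
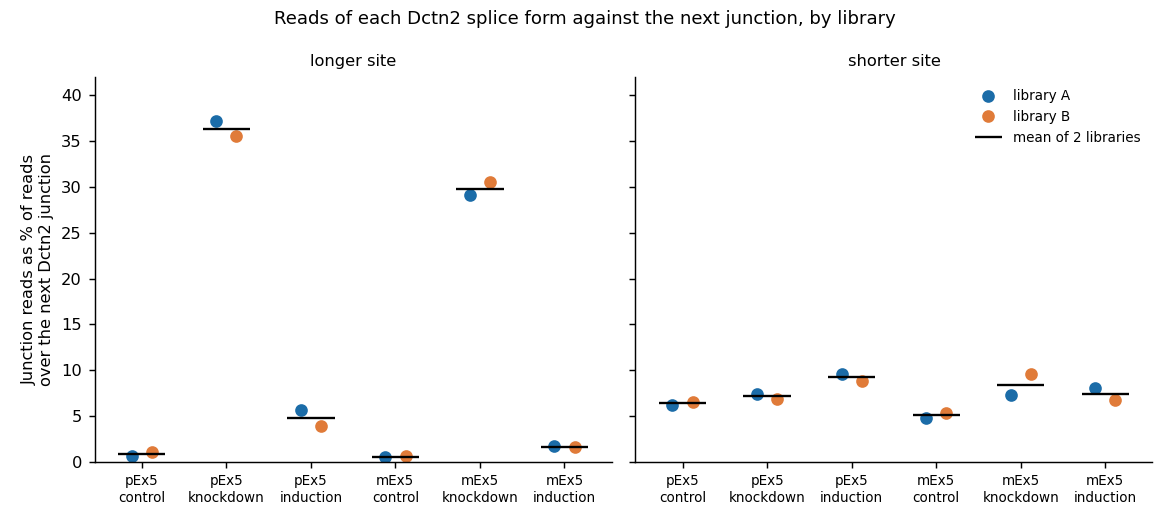
Corrected reads, as the Dctn2 event gives them, of the longer site (left) and shorter site (right) of Dctn2 in each library of the 6 groups (x axis). They are given as a percentage of uncorrected reads over the next junction (y axis). Points are libraries and bars the mean of 2. The longer form lies at 29.1% to 37.2% after knockdown, and the shorter form stays between 4.79% and 9.62%.

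A second Dctn2 exon, of 66 nt, was included less after induction in mEx5 than in pEx5. It is the eighth exon of Dctn2-201, at chr10:127277255-127277320 of GRCm38, and is shown in capitals with 12 bases of its neighbours in the mRNA.
Dctn2 66 nt exon: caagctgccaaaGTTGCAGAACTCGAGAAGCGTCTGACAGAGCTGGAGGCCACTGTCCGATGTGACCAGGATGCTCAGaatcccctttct
Its PSI was 91.5 and 92.7 in pEx5 controls, 94.8 and 95.8 after knockdown, and 93.7 and 92.8 after induction. In mEx5 it was 89.9 and 91.3, then 92.4 and 92.1, then 86.4 and 85.2. Both induced mEx5 libraries lay below all other libraries, from 1725 to 4508 reads a library. The lines differed by 7.38 points after induction (adjusted p = 0.00137, limma), under the 10 points asked of a call, and by 1.5 points in the controls (adjusted p = 0.735, limma). After knockdown they differed by 3.07 points (adjusted p = 0.142, limma). The difference between lines in the change from knockdown to induction was 4.31 points and did not pass (adjusted p = 0.621, limma). The authors' deposited table called this exon between the lines after induction and after knockdown, and not in the controls.

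Dctn1 encodes the largest dynactin subunit, whose arm reaches the microtubule and binds the dynein intermediate chain. A pair of short exons of this gene were alternatively spliced in these cells, and both are shown because the results on Dctn1 exons are about them. In GRCm38 the 15 nt exon lies at chr6:83197319-83197333 and the 21 nt exon at chr6:83183936-83183956, on the plus strand, and both are coding. Capitals mark the exon.
Dctn1 15 nt exon: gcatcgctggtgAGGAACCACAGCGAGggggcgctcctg
Dctn1 21 nt exon: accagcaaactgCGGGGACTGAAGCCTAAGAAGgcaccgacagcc

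Inclusion of the 15 nt Dctn1 exon fell on induction in the mEx5 line. Its PSI was 50.5 and 48.2 in pEx5 controls, 56.7 and 55.7 after knockdown, and 52.3 and 49.8 after induction. In mEx5 it was 50.4 and 49.8 in controls, 48.6 and 46.8 after knockdown, and 37.0 and 30.8 after induction. Both induced mEx5 libraries lay below the other 10. The lines differed by 17.2 points after induction (pEx5 51.1 ± 1.7, mEx5 33.9 ± 4.4, SD, n = 2 each), 0.695 ± 0.14 on the log-odds scale (SE, adjusted p = 0.0119, limma). In the controls they differed by -0.73 points (adjusted p = 0.977, limma), and after knockdown by 8.5 points (adjusted p = 0.437, limma).

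Between knockdown and induction, the 15 nt exon fell by 13.8 points in mEx5 (adjusted p = 0.0139, limma), and the change in pEx5 was -5.14 points (adjusted p = 0.409, limma). From control to induction the exon fell by 16.2 points in mEx5 (adjusted p = 0.024, limma), and the change in pEx5 was 1.71 points (adjusted p = 0.837, limma). The difference between the lines in the change from knockdown was 8.67 points and did not pass (adjusted p = 0.574, limma). The call between the lines was lost without the pEx5 induction library A (adjusted p = 0.101), without the pEx5 induction library B (0.0561) and without the mEx5 induction library B (0.0871), where the difference stayed between 14.0 and 18.4 points. The call from knockdown to induction in mEx5 was lost without the mEx5 knockdown library A (adjusted p = 0.0910) and without the mEx5 induction library B (0.103). The authors' deposited table called this exon between the lines after induction and after knockdown, and not in the controls.

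The 21 nt Dctn1 exon was included at 6.97% to 14.6% in all 12 libraries, with 155 to 251 reads a library. Its group means differed by at most 5.66 points, and the difference between lines was 3.39 points after induction (adjusted p = 0.458, limma) and -1.51 points in the controls (adjusted p = 0.899, limma).

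The introns just before both short Dctn1 exons, and another Dctn1 intron, varied widely between libraries. Intron events report the share of mRNAs that retain the intron, and these rested on few reads. The intron of 1211 nt that ends at the 15 nt exon was retained at 8.81 and 12.1% in pEx5 controls, 24.7 and 20.4% after knockdown, and 15.8 and 21.6% after induction. In mEx5 it was 4.36 and 13.04%, then 9.19 and 31.3%, then 19.7 and 12.98%, on 46 to 139 reads a library. The intron of 602 nt that ends at the 21 nt exon was retained at 2.04% to 36.8%, on 16 to 69 reads. A Dctn1 intron of 1292 nt was retained at 34.8% to 100%, on 12 to 46 reads. From knockdown to induction these introns changed by -3.85, -10.1 and 3.32 points, and none passed the test (adjusted p = 0.732, 0.337 and 0.781, limma). The libraries of 1 group lay far apart here, as for the 1292 nt intron at 100% and 46.9% in the induced mEx5 libraries.

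Dctn4 encodes a subunit of the pointed-end complex. A 21 nt exon of this gene was at a lower PSI after knockdown than in control and rose on induction in both lines. Its PSI was 40.4 and 43.1 in pEx5 controls, 25.1 and 24.9 after knockdown, and 38.9 and 38.8 after induction. In mEx5 it was 45.7 and 41.7 in controls, 26.2 and 30.5 after knockdown, and 42.4 and 48.1 after induction, from 380 to 620 reads a library. All 4 knockdown libraries lay below the other 8. On induction PSI rose by 13.9 points in pEx5 (adjusted p = 0.00451, limma) and by 16.9 points in mEx5 (adjusted p = 0.00164, limma). Over both lines the rise was 15.4 points, 0.689 ± 0.091 on the log-odds scale (SE, adjusted p = 8.18e-05, limma). This comparison shares its knockdown libraries with the comparison of knockdown and control. Induced libraries differed from controls by -0.70 points (adjusted p = 0.888, limma), and the lines differed by -6.38 points after induction (adjusted p = 0.316, limma) and by -1.99 points in the controls (adjusted p = 0.921, limma).

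Dync1i2 encodes the dynein intermediate chain, the part of the motor that docks onto dynactin. Its 60 nt exon, at chr2:71233649-71233708 of GRCm38 on the plus strand, is shown in capitals because the libraries of both lines did not overlap in its inclusion.
Dync1i2 60 nt exon: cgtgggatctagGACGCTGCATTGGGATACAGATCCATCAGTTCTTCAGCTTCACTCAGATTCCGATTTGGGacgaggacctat
Its PSI was 27.0 and 24.5 in pEx5 controls, 22.2 and 21.1 after knockdown, and 23.6 and 22.4 after induction. In mEx5 it was 30.8 and 32.6, then 29.9 and 28.3, then 27.9 and 30.8. All 6 mEx5 libraries lay above all 6 pEx5 libraries. The differences between lines were -5.97 points in control, -7.45 after knockdown and -6.38 after induction, and none passed the test (adjusted p = 0.512, 0.176 and 0.0786, limma). The authors' deposited table called this exon between the lines in all 3 treatments. Depth here was 2484 to 3953 reads a library. An extra 3 nt at a Dync1i2 3′ splice site was used at 92.8% to 96.2% in every library.

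**Figure D3:**
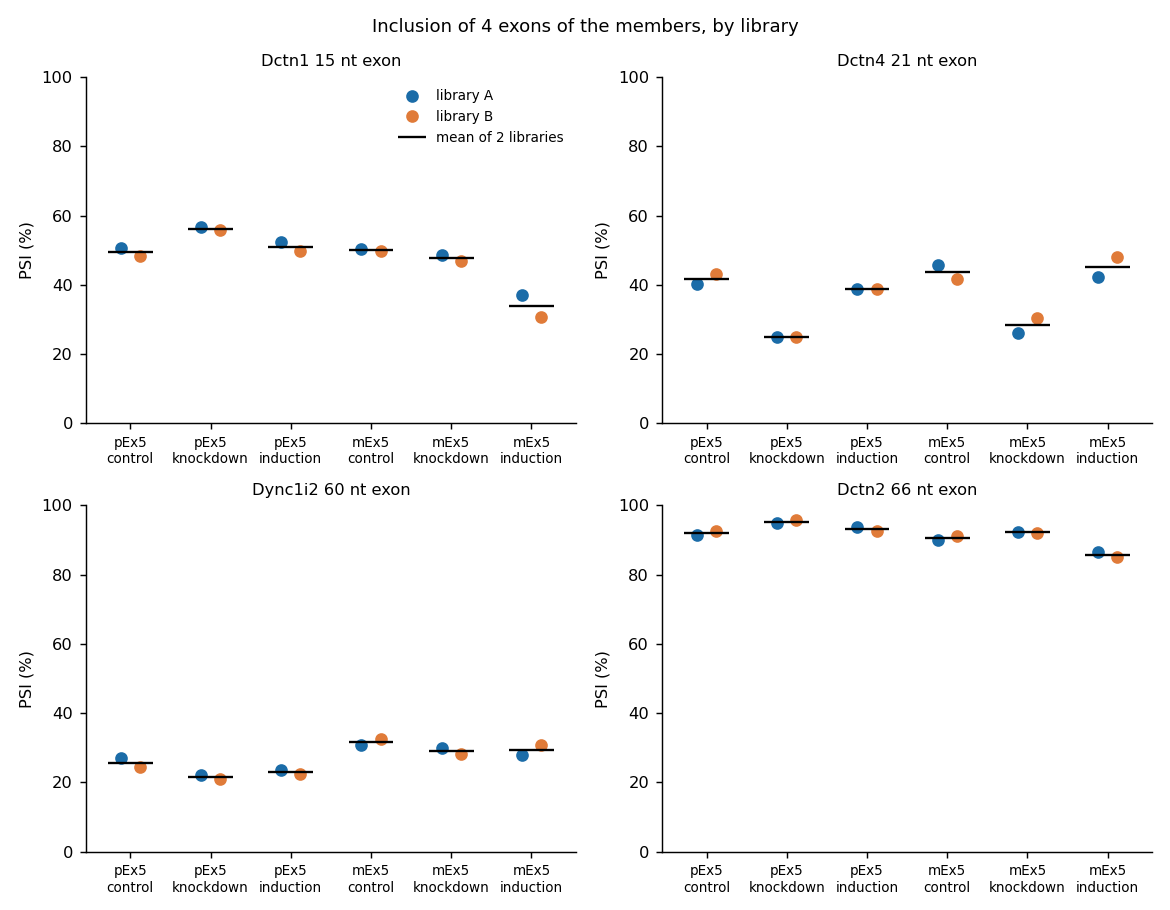
PSI (percent, y axis) of the Dctn1 15 nt, Dctn4 21 nt, Dync1i2 60 nt and Dctn2 66 nt exons in each library of the 6 groups (x axis); points are libraries and bars the mean of 2. Induced mEx5 is lowest for the Dctn1 exon (33.9) and the Dctn2 exon (85.8), knockdown is lowest for the Dctn4 exon, and the Dync1i2 exon is higher in mEx5 throughout.

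Short introns of Actr1b, Dctn3 and Dctn2 were retained at low levels. Actr1b encodes a form of the actin-related protein of the filament. Its intron of 157 nt was retained at 8.25 and 8.61% in pEx5 controls, 2.25 and 4.11% after knockdown, and 6.82 and 9.06% after induction. In mEx5 it was 8.61 and 8.81%, then 5.17 and 4.22%, then 12.97 and 11.6%. All 4 knockdown libraries lay below the other 8, and the difference from knockdown to induction was 6.18 points (adjusted p = 9.36e-05, limma), under the 10 points asked of a call. An intron of 136 nt in Dctn3, which encodes the small subunit of the shoulder, was retained at 1.58% to 3.80% in controls and at 5.45% to 14.5% in the other libraries. From control to induction its retention differed by 5.41 points (adjusted p = 0.0226, limma), also under 10 points. A Dctn2 intron of 181 nt was retained at 2.90% to 10.8%.

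The remaining events of the 10 genes hardly varied. Of the 407 events, 181 were exons, 178 introns, 35 alternative 3′ sites and 13 alternative 5′ sites. At least 10 reads in every library stood behind 396 of them, and 13 of these had a mean PSI of 5 to 95 and entered the test. The other 383 events had group means that differed by at most 6.04 points, with a median of 0.20 points. Dync1h1, the dynein heavy chain that holds the motor domain, accounted for 161 of the 407 events, and Dctn5, Dctn6, Actr1a and Dync1h1 had no event with a mean PSI of 5 to 95. All 7 tested exon and splice site events of the members had a length that is a multiple of 3, as had 46.2% of the 13907 such events tested in all genes.

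Counts of tested member events are read against the share of all 22770 events called, at an adjusted p under 0.05 and a difference of at least 10 points. As a description only, 3 of 13 events lay past both values in knockdown against control, beside 17.5% of all events, and 1 of the 3 is the Dctn2 site by which the set was chosen. From knockdown to induction, averaged over both lines, 1 of the 10 events outside Dctn2 was called, the Dctn4 exon, beside 11.5% of all events. From control to induction, again averaged over both lines, 0 of these 10 events were called in limma, beside 3.18% of all events, and 3 had an unadjusted p under 0.05. Within single lines, the 15 nt Dctn1 exon was called in mEx5 in both of these comparisons. The Dctn4 exon was called in each line from knockdown to induction. The share of all events called within a single line was not counted, so these calls have no background beside them. Between the lines after induction 2 of 13 were called, the Dctn2 site and the 15 nt Dctn1 exon, beside 2.85% of all events. The first is the site by which the set was chosen, so this count is a description. Outside Dctn2 only the Dctn1 exon was called. Between the control lines 0 of 13 were called in limma, beside 0.0351%, and 1 had an unadjusted p under 0.05.

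Among the 13256 other alternative 5′ sites with at least 10 reads in every library, 5 came nearest to the Dctn2 site. Nearness was taken from the deposited PSI over the 12 libraries. The mean absolute difference in PSI was 13.8 points for a 5 nt site of Cbx3, 13.9 for a 4 nt site of Ccdc45, 14.1 for a 19 nt site of Entpd4, 16.7 for a 39 nt site of Hnrnph1 and 17.9 for a 138 nt site of Vkorc1l1. The Cbx3 site had group means of 32.6 ± 3.5 in control, 72.8 ± 1.6 after knockdown and 38.8 ± 6.9 after induction in pEx5 (SD, n = 2 each). In mEx5 they were 28.5 ± 5.0, 75.0 ± 5.7 and 36.0 ± 4.1. By the deposited PSI, the Cbx3 site was used more than the Dctn2 site in control libraries, and its induced groups lay closer together. With the second event's reads, the Dctn2 control means were 36.9% and 34.8% (uncorrected) or 65.3% and 67.3% (corrected), above those of Cbx3. With the corrected reads, the induced Dctn2 means of 66.6% and 64.9% lay no further apart than those of Cbx3.

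Levels of the 10 mRNAs per length differed more between genes than between treatments. The authors' deposited table gives 1 RPKM per group and no spread. In pEx5 controls the order was Dctn2 at 157 RPKM, Dctn6 at 103, Dync1i2 at 89.3, Actr1a at 77.8, Actr1b at 76.1, Dctn5 at 70.2, Dctn3 at 60.1, Dctn1 at 33.3, Dctn4 at 32.7 and Dync1h1 at 25.7 RPKM. Neighbours in this order could not be tested against replicate spread. Dctn5 and Dctn6 encode subunits of the pointed-end complex, and their group RPKM spanned 70.2 to 74.3 and 103 to 113.

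**Figure D4:**
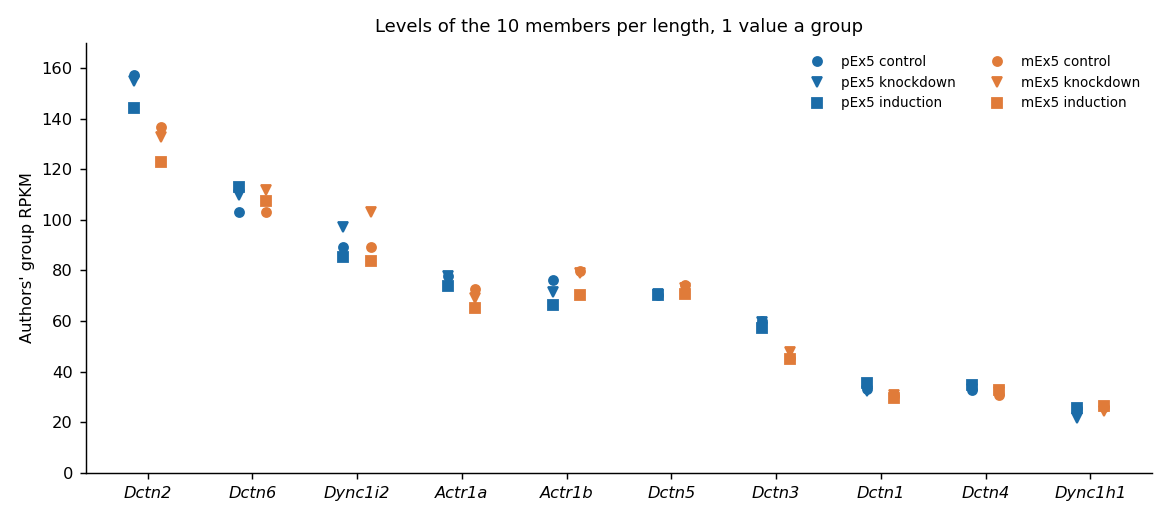
The authors' group RPKM (y axis) of the 10 genes (x axis), 1 symbol for each of the 6 groups and no replicate spread. Dctn2 is highest in each group, and its pEx5 values, like those of Dctn3, lie above its mEx5 values.

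Spread between libraries was taken from junction CPM. Dync1i2 was higher after knockdown than in control and fell on induction. It stood at 298.9 and 329.4 CPM in pEx5 controls, 365.9 and 368.6 after knockdown, and 305.9 and 323.1 after induction. In mEx5 it stood at 317.1 and 318.2, then 359.3 and 381.9, then 312.3 and 321.9. All 4 knockdown libraries lay above the other 8. On induction the log2 change was -0.22 ± 0.04 (SE, adjusted p = 0.0058, limma over 10363 genes). The authors' deposited table gives log2 changes of -0.19 in pEx5 and -0.24 in mEx5 for this step, with adjusted p-values of 0.00605 and 0.000303.

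Actr1b was lower after induction than in both other treatments. Its CPM values were 292.6 and 278.7, then 285.5 and 294.3, then 267.6 and 249.4 in pEx5 control, knockdown and induction. In mEx5 they were 289.1 and 302.9, then 324.8 and 323.2, then 266.6 and 259.2. All 4 induced libraries lay below the other 8. The log2 change was -0.23 ± 0.04 from knockdown (SE, adjusted p = 0.00295, limma) and -0.16 ± 0.04 from control (SE, adjusted p = 0.0175, limma). The change from control was lost without the pEx5 control library A (adjusted p = 0.0524), without the pEx5 induction library B (0.0574) and without the mEx5 control library B (0.0635).

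Dctn4 stood at 84.0 to 92.1 CPM in the 4 control libraries and at 94.8 to 102.0 in the 4 induced libraries, which did not overlap. The log2 change was 0.18 ± 0.05 (SE, adjusted p = 0.0246, limma). It was lost without any 1 of 5 libraries: pEx5 control A, pEx5 control B, pEx5 induction B, mEx5 control A and mEx5 induction B, with adjusted p-values of 0.0522 to 0.0871.

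Dctn3 was higher in the pEx5 line than in the mEx5 line whatever the treatment. Its CPM values were 62.9 to 68.7 in the 6 pEx5 libraries and 50.5 to 57.2 in the 6 mEx5 libraries. The log2 difference was 0.36 ± 0.07 in control (SE, adjusted p = 0.00978, limma) and 0.29 ± 0.07 after induction (SE, adjusted p = 0.0179, limma). The control call was lost without the pEx5 control library B (adjusted p = 0.0562) or the mEx5 control library B (0.0662). The call after induction was lost without the pEx5 induction library B (0.0987) or the mEx5 induction library A (0.0951).

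Dctn2 was also higher in pEx5. Its CPM values were 467.5 and 435.5 in pEx5 controls, 436.7 and 464.6 after knockdown, and 424.6 and 420.6 after induction. In mEx5 they were 405.0 and 395.3, then 388.5 and 386.1, then 373.9 and 328.4. The log2 difference between lines was 0.27 ± 0.07 after induction (SE, adjusted p = 0.0205, limma) and 0.17 ± 0.07 in control (SE, adjusted p = 0.120, limma). The first was lost without the pEx5 induction library A (adjusted p = 0.0863), the pEx5 induction library B (0.0720) or the mEx5 induction library B (0.104). In the authors' deposited table the differences were 0.28 and 0.21 on the log2 scale, with adjusted p-values of 0.00106 and 0.0228.

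From knockdown to induction 2 of the 9 genes other than Dctn2 were called, Actr1b and Dync1i2, beside 32.8% of all 10363 genes. From control to induction 2 of 9 were called, Actr1b and Dctn4, beside 32.7%. Between the lines 2 of 10 were called after induction, Dctn2 and Dctn3, beside 32.2%, and 1 of 10 in control, Dctn3, beside 21.3%. As a description only, 1 of 10 lay past the threshold in knockdown against control, Dync1i2, beside 48.6%. The members' median log2 change was -0.02 from knockdown to induction, against -0.01 over all genes. Dctn1, Dctn5, Dctn6, Actr1a and Dync1h1 were called in none of these 5 comparisons. The authors' deposited table gives Actr1a a log2 difference of 0.18 between the lines after induction (adjusted p = 0.0331), where the junction reads gave 0.18 ± 0.06 (SE, adjusted p = 0.0622, limma) and 0.04 ± 0.06 in control (SE, adjusted p = 0.720, limma).

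**Figure D5:**
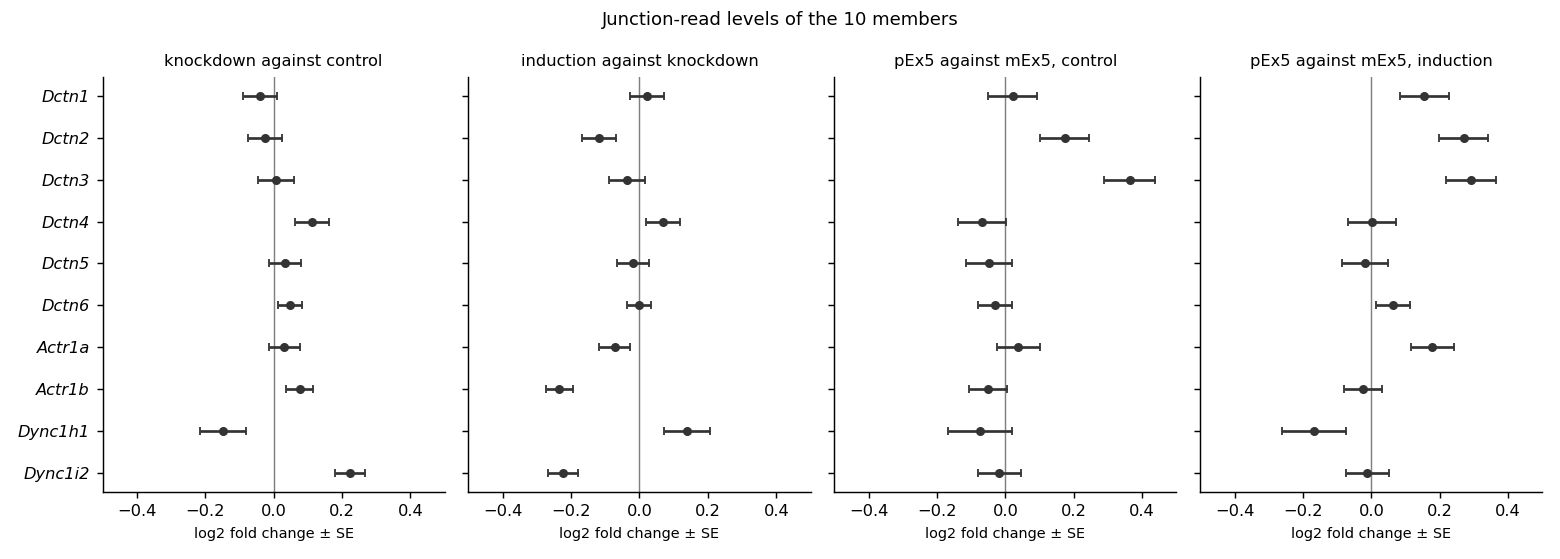
Log2 fold changes of junction-read levels (x axis) of the 10 genes (y axis) in 4 comparisons, with points for the estimate and bars for 1 standard error, from 2 libraries a group. Actr1b and Dync1i2 lie at -0.23 and -0.22 from knockdown to induction, and Dctn3 lies at 0.36 and 0.29 between the lines; the first panel is a description.

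Other genes of the motor and its partners were read from a list of 35, of which 23 were found by name with enough junction reads. For the rest, a missing name and too few reads were not told apart. From knockdown to induction 5 of the 23 rose, beside 17.3% of all genes, and 4 fell, beside 15.6%. Dync1li1, a light intermediate chain of dynein that binds cargo adaptors, averaged 205 and 193 CPM in pEx5 and mEx5 controls, 127 and 122 after knockdown, and 166 and 175 after induction. Its log2 rise on induction was 0.45 ± 0.04 (SE, adjusted p = 0.000138, limma). The other light intermediate chain, Dync1li2, rose by 0.23 ± 0.05 and the cargo adaptor Hook1 by 0.26 ± 0.05. The microtubule plus-end proteins Clip1 and Mapre3 rose by 0.12 ± 0.04 and 0.40 ± 0.09. These are log2 changes averaged over both lines. Clip1 stood at 0.02 in pEx5 (adjusted p = 0.871, limma) and 0.23 in mEx5 (adjusted p = 0.0127, limma), a difference that did not pass (adjusted p = 0.269, limma). Hook2 fell by 0.53 ± 0.07 (adjusted p = 0.000914, limma), the adaptor Bicd1 by 0.33 ± 0.06, the centrosome protein Nin by 0.20 ± 0.06 and the dynein regulator Nde1 by 0.12 ± 0.04. For Bicd1 the change was -0.51 in pEx5 (adjusted p = 0.00515, limma) and -0.16 in mEx5 (adjusted p = 0.209, limma), a difference that did not pass (adjusted p = 0.293, limma).

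Between the lines after induction 6 of the 23 were called, all lower in pEx5, beside 15.5% of all genes. They were the dynein light chain gene Dynlt3 (log2 difference -0.73 ± 0.07, SE), Mapre3 (-0.60 ± 0.13), Clip1 (-0.51 ± 0.05), Capza2, which encodes a capping protein of the dynactin filament (-0.40 ± 0.09), Mapre1 (-0.38 ± 0.06) and Bicd1 (-0.38 ± 0.08). In control Dynlt3, Clip1 and Mapre1 were also lower in pEx5, by -0.78, -0.34 and -0.29 on the log2 scale (adjusted p = 0.000169, 0.00194 and 0.0125, limma). The control differences of Mapre3, Capza2 and Bicd1 were -0.42, 0.02 and -0.04 (adjusted p = 0.0514, 0.880 and 0.791, limma).

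Splicing of these other genes gave 46 tested events, of which 8 were called from knockdown to induction, beside 11.5% of all events. Between the lines after induction 0 were called in limma, beside 2.85%, where 10 had an unadjusted p under 0.05. A 117 nt exon of Clip1 had group means of 95.8 in control, 77.2 after knockdown and 93.3 after induction in pEx5, and 95.2, 70.0 and 89.8 in mEx5. Its rise on induction was 18.0 points (adjusted p = 7.32e-06, limma). A 6 nt exon of Clip1 rose by 12.2 points (adjusted p = 0.0105, limma) on induction. A 228 nt extension at a Clip1 5′ site differed by 10.3 points over both lines (adjusted p = 0.0224, limma), with group means of 67.7 after knockdown and 66.8 after induction in pEx5, and of 54.6 and 76.1 in mEx5. A 42 nt exon of Dynlt3 had group means of 99.8, 83.7 and 96.0 in pEx5 and 99.8, 81.5 and 98.8 in mEx5, and rose by 14.8 points on induction (adjusted p = 1.88e-06, limma). A 194 nt exon of Bicd1 rose by 11.7 points, and retention of a Bicd1 intron by 14.7 points. Retention of a Hook2 intron rose by 24.6 points and that of a Mapre3 intron fell by 14.6 points (adjusted p = 0.0233 and 0.0331, limma).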

How the data were processed

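Splicing was measured by the authors with vast-tools, per the table's name: the deposited table gives the percent spliced in of 401633 events in each of 12 libraries. The quality text deposited beside each PSI holds corrected read counts for and against inclusion, which give the same percentage to 0.02 points for 98.89% of values. A second deposited table gives the authors' group PSI score and True or False calls; their criterion is not given in the sources used here. From the deposited expression table came the authors' group RPKM, log2 fold changes and p-values, which were made with Salmon 0.14.1 and edgeR on mm10 per the submitters' processing notes. Libraries were grouped by the treatment label, since the sample description calls the doxycycline libraries uninduced.

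For splicing, limma 3.58.1 (R 4.3.3) was run on logit-transformed reads (pseudocount 0.5, weights from the reads, variance floor 0.01), where every library had 10 or more reads and the mean PSI was 5 to 95. Levels were tested with limma on log2 CPM of junction reads summed per gene (median-of-ratios scaling, prior count 2, mean of at least 20 reads), since RPKM were deposited per group only. All p-values were adjusted by Benjamini-Hochberg over the whole table, and both tests were tested on simulated data. Intervals of a library (Wilson, 95%) treat its corrected reads, rounded, as plain counts and cover no other error. Exon sequences are from GENCODE M21 transcripts. Promoter sequences and protein sequences were not used here.

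The members, the motor list and the tests were chosen with earlier results of these data known. Member events are named where groups differed by at least 10 points, other motor genes where called from knockdown to induction or between lines after induction, and the 5 splice sites by their closeness to Dctn2. The 66 nt Dctn2 and 21 nt Dctn1 exons, the Dync1i2 3′ site and the introns of Actr1b, Dctn2 and Dctn3 fall outside that rule and were named after their values were seen. Alternatives were the pseudocount, read minimum, PSI range, weights, difference asked, scaling, prior, filter, replicate block and each library left out. The reads of the second event for the Dctn2 junction were added after seeing the data.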

Additional observations from a re-analysis of the deposited data

How the results depend on the processing

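The counts of members called between the lines after induction changed with the processing. The splicing count of 2 became 1 without the range on mean PSI, 0 without weights, and 1 with the second event's reads for the Dctn2 site, corrected or uncorrected; it was 0 to 2 when each library was left out in turn. Without weights the adjusted p was 0.12 for the Dctn2 site and 0.0837 for the 15 nt Dctn1 exon, whose call from knockdown to induction in mEx5 was also lost (adjusted p = 0.0649), and without the PSI range it was 0.218 for the Dctn2 site; the cause was not tested. Over all events this splicing count fell from 649 to 195 without the PSI range and to 218 without weights. Leaving out single libraries gave splicing counts of 1 to 2 from knockdown to induction. For expression it gave 1 to 2 for knockdown against control, 0 to 2 from control to induction, 0 to 2 between lines after induction and 0 to 1 between control lines. Libraries shared only the letters A and B across groups: correlations of their deviations between groups were -0.13 to 0.16 in expression and -0.02 to 0.02 in splicing, over 15 pairs of groups. With the letter as a replicate block, the splicing counts were 4, 1, 0, 2 and 0, against 3, 1, 0, 2 and 0 without it, and the expression counts stayed at 1, 2, 2, 2 and 1, in the order knockdown, induction against knockdown, induction against control, lines after induction and lines in control. The 372 recomputed values include counts of calls, which have no direction, and none of the differences among them changed sign. A PSI difference could change only where a library was left out or the second event's reads were used. Precision is limited by 2 libraries a group and, for the longer Dctn2 site in controls, by at most 36.0 corrected reads.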
